A study of Mus musculus with 4 samples.

Results

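The clustered protocadherin genes were examined in lists of accessible regions from ATAC-seq, an assay in which a transposase cuts and tags open DNA. The group was defined by name and biotype: every protein-coding RefSeq gene of mouse build mm10 (GRCm38.p6) whose symbol begins with Pcdha, Pcdhb or Pcdhg. This gave 57 genes out of 21887, or 0.260% of all protein-coding genes, and all of them lie on chromosome 18. There were 14 genes in the alpha cluster, 22 in the beta cluster and 21 in the gamma cluster. The rule itself uses no measured value. Pcdhgb8, which the annotation lists as a transcribed pseudogene, and 3 read-through models (Gm37013, Gm38666 and Gm38667) that begin beside Pcdha4, Pcdha6 and Pcdha7 and run to the end of the gamma cluster were not counted as members.

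The cells were germ cells from female C57BL/6 embryos at embryonic day 15.5, sorted in every library through an Oct4-EGFP reporter. There were 2 libraries of genotype Control and 2 of genotype Snf5 CKO. Smarcb1 is the gene for Snf5, which belongs to the core of SWI/SNF, a complex that moves nucleosomes. The labels give neither the Cre driver nor the alleles that the controls carry, and they do not say whether the 2 libraries of a group came from separate embryos, so p-values measure only the spread between these libraries, which technical differences may set.

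Clustered protocadherins are cadherin-like adhesion proteins of the cell surface, best known from neurons, where each cell uses a small and partly random choice of them as an identity code for self-avoidance. Each variable exon has its own promoter. In the alpha and gamma clusters the chosen variable exon is spliced to constant exons shared by the whole cluster, while beta genes are single exons. The transcription start is chosen with the help of the insulator protein CTCF and cohesin, and the unused promoters are kept shut by DNA methylation. The C-type members (Pcdhac1, Pcdhac2, Pcdhgc3, Pcdhgc4 and Pcdhgc5) stand at the end of their clusters and are known for steadier use across neurons.

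The deposited lists held 39465 peaks in Control 1, 36730 in Control 2, against 45422 in Snf5 CKO 1 and 28625 in Snf5 CKO 2, over 27.4, 25.2, 24.3 and 16.9 Mb. No read counts were used, so depth is unknown, and openness too weak to be called in a library cannot be seen here. Smarcb1 had a peak at its start in both controls, with fold enrichments of 4.37 and 4.19, and none in either Snf5 CKO library. All 7 germ cell markers examined (Ddx4, Dazl, Sycp3, Stra8, Mael, Pou5f1 and Dppa3) had a peak at the start, or for Dppa3 at a gene end, in all 4 libraries. The markers of other cells were not all closed: 3 of 5 for ovarian supporting cells, 1 of 4 for stroma, 1 of 3 for endothelium, 1 of 3 for blood and 3 of 7 for neurons and neural crest were open in all 4 libraries. Sox10, a neural crest gene, was the single one of these markers called lost, with fold enrichments of 2.95 and 3.30 in the controls and no peak in Snf5 CKO. Of the 7 neuron and neural crest markers, each control had 6 open, whereas Snf5 CKO 1 had 5 and Snf5 CKO 2 had 3. For comparison, 53.8% of the 17549 protein-coding genes with a known strand had a start peak in every library. In Control 1, Control 2, Snf5 CKO 1 and Snf5 CKO 2 the shares with one were 60.9%, 61.0%, 58.4% and 55.1%. Strand was not given for Dppa3, Fst, Gata4, Col1a1, Pecam1, Cdh5, Sox10 and Snap25, so a peak at either gene end counted for them. All genes in the comparison were searched at the start alone. The marker sets are small, and their difference from all genes was not tested. Among the closed markers were Gata4, Pdgfra, Nr2f2, Cdh5, Ptprc, Gata1 and Rbfox3. The part that other cells have in the results below was not tested.

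Open, for a gene in a given library, means that at least 1 bp of a peak lay within 1 kb of the gene start, here the start of the variable exon. By this measure 13 of the 57 members were open in Control 1, 21 in Control 2, against 26 in Snf5 CKO 1 and 9 in Snf5 CKO 2. These are 22.8%, 36.8%, 45.6% and 15.8% of the members. Over the 17549 protein-coding genes with a known strand, 60.9%, 61.0%, 58.4% and 55.1% were open in the same libraries. The members thus spanned a wider range between libraries than genes as a whole, and the highest and the lowest count both came from Snf5 CKO. Controls averaged 17.0 ± 5.66 open members (SD, n = 2) and the Snf5 CKO libraries 17.5 ± 12.02 (SD, n = 2). The difference of 0.5 is smaller than the spread within either group (p = 1.0, two-sided exact permutation test). With 2 libraries against 2 the smallest p that this test can give is 0.333.

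**Figure D1:**
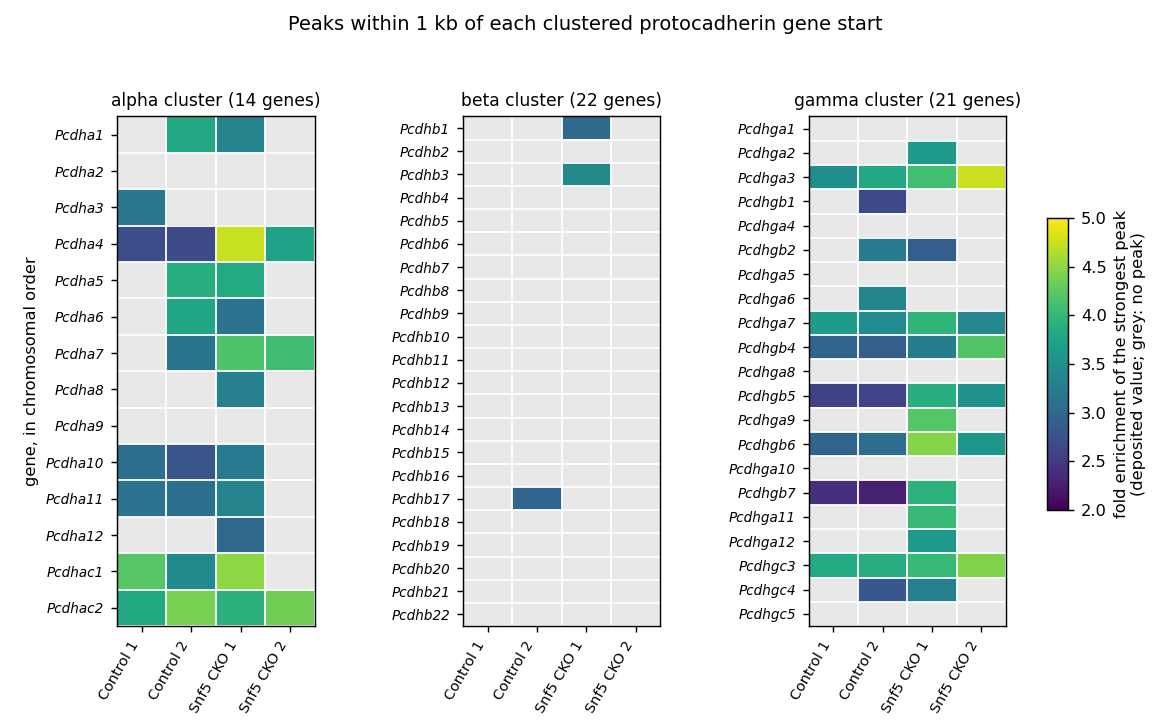
Fold enrichment (colour, from the authors' lists) of the strongest peak within 1 kb of each gene start, with 1 row per gene in chromosomal order and 1 column per library; grey means that the library had no peak. The beta cluster is grey but for 3 cells, and 8 rows of the alpha and gamma clusters are filled in all 4 libraries.

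**Figure D2:**
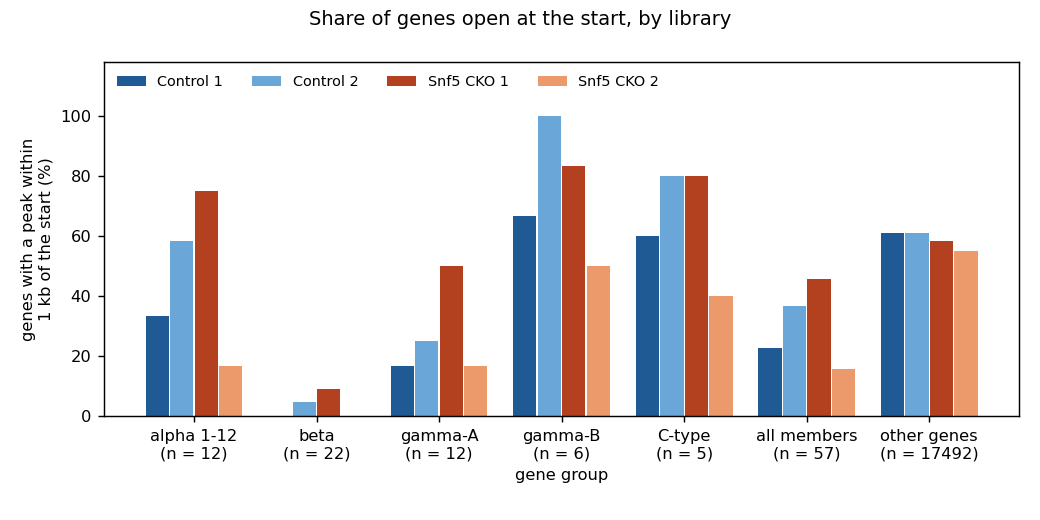
Percentage of genes with a peak within 1 kb of the start, as bars for each library, in the subgroups of members, in all 57 members and in the 17492 other genes with a known strand. The other genes stand between 55.2% and 61.1% in every library, while the members range from 15.8% to 45.6%.

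The alpha cluster, which begins at chromosome 18, 36930285 and ends at 37188897, was among the more open parts. Of its 12 ordinary members, Pcdha1 to Pcdha12, 4 were open in Control 1, 7 in Control 2, against 9 in Snf5 CKO 1 and 2 in Snf5 CKO 2. Pcdha2 and Pcdha9 had no peak at the start in any library, and Pcdha4 was the single ordinary alpha gene with one in all 4. The Pcdha4 peak had fold enrichments of 2.71 and 2.69 in the control lists and of 4.75 and 3.72 in the Snf5 CKO lists. It measured 282 and 298 bp in the controls and 288 and 200 bp in Snf5 CKO, and it began 217, 212, 382 and 482 bp after the gene start in Control 1, Control 2, Snf5 CKO 1 and Snf5 CKO 2.

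The other alpha genes differed by library without following the genotype. Pcdha7 was open in Control 2 and in both Snf5 CKO libraries, with fold enrichments of 3.17, 4.17 and 4.09. Pcdha10 and Pcdha11 were open in all but Snf5 CKO 2, with values of 3.09, 2.79 and 3.24 for Pcdha10. The corresponding fold enrichments for Pcdha11 were 3.14, 3.11 and 3.34. By fold, the Pcdha11 peaks of Control 2 and Snf5 CKO 1 stood at percentiles 15.8 and 19.6 of their lists. Pcdha1, Pcdha5 and Pcdha6 shared one pattern, a peak in Control 2 and Snf5 CKO 1 alone. Pcdha3 was open in Control 1 alone, at a fold enrichment of 3.19, and Pcdha8 and Pcdha12 in Snf5 CKO 1 alone, at 3.31 and 3.02.

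The beta cluster, from 37264998 to 37521419, had few open starts. Control 1 and Snf5 CKO 2 had none at any of the 22 beta starts, Control 2 had 1 and Snf5 CKO 1 had 2. The open beta genes were Pcdhb17 in Control 2, with a fold enrichment of 2.98, and Pcdhb1 and Pcdhb3 in Snf5 CKO 1, with 3.04 and 3.41. No beta start was open in 2 libraries. Over the whole 256.4 kb of the cluster there was no peak in Control 1 or Snf5 CKO 2, 2 peaks in Control 2 and 7 in Snf5 CKO 1. They covered 0.458% of the bases in Control 2 and 0.955% in Snf5 CKO 1, where chromosome 18 between its first and last gene had 0.818% and 0.842%. In Snf5 CKO 1 the beta cluster was thus covered slightly more than the chromosome.

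The gamma cluster, from 37661775 to 37841873, held most of the steady members. It alternates genes of an A type and a B type, named for the similarity of their variable exons. All 6 B-type genes were open in at least 1 library and 3 of them, Pcdhgb4, Pcdhgb5 and Pcdhgb6, in all 4. Of the 12 A-type genes, 7 were open in at least 1 library and 2 in all 4, Pcdhga3 and Pcdhga7. Pcdhga1, Pcdhga4, Pcdhga5, Pcdhga8 and Pcdhga10 had no peak at the start in any library.

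For Pcdhgb4 the fold enrichments were 2.96 in Control 1, 2.91 in Control 2, against 3.27 in Snf5 CKO 1 and 4.18 in Snf5 CKO 2. Pcdhgb5 had 2.59, 2.60, 3.90 and 3.54 in the same order. Pcdhgb6 had 2.97, 3.08, 4.46 and 3.58. The lists were called separately, and the fold over all peaks had a median of 3.86 and 3.91 in the control lists and of 4.13 and 4.41 in the Snf5 CKO lists. Fold is therefore read here only within a list, and no change between genotypes is drawn from it.

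Pcdhga3 had fold enrichments of 3.50, 3.81, 4.09 and 4.76 in Control 1, Control 2, Snf5 CKO 1 and Snf5 CKO 2, and Pcdhga7 had 3.64, 3.45, 3.97 and 3.39. The remaining B-type genes were less regular. Pcdhgb7 was open in all but Snf5 CKO 2, with 2.41, 2.26 and 3.94, Pcdhgb2 in Control 2 and Snf5 CKO 1, with 3.22 and 2.89, and Pcdhgb1 in Control 2 alone, with 2.67. Single-library A-type genes were mostly from Snf5 CKO 1: Pcdhga2, Pcdhga9, Pcdhga11 and Pcdhga12 were open there alone, with values of 3.62 to 4.21, against Pcdhga6 in Control 2 alone, with 3.38.

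The C-type genes included the longest peaks of the group. Pcdhac2 had a peak in every library, with fold enrichments of 3.83, 4.39, 3.93 and 4.35 in Control 1, Control 2, Snf5 CKO 1 and Snf5 CKO 2. Pcdhgc3 likewise had 3.84, 3.87, 4.04 and 4.43. These 2 genes and Pcdhga3 were the members that kept a peak in all 4 libraries under all 7 alternative rules that used every library. Pcdhac1 was open in all but Snf5 CKO 2, with 4.22, 3.43 and 4.49. Pcdhgc4 was open in Control 2 and Snf5 CKO 1 alone. Its peak there ended before the gene start, at 37814738 and 37814699, and Snf5 CKO 1 had a second one from 37815164 to 37815473. Pcdhgc5 had no peak at its start.

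The members' peaks were weak within their own lists and shorter than those of other open genes. Across the 70 peaks at member starts the fold enrichment ran from 2.26 to 4.76 with a median of 3.44, and the median peak stood at percentile 23.0 of its library's list. Only 9 of the 70 lay above their list's median. The strongest peak at an open member had a median fold of 3.14 in Control 1, 3.17 in Control 2, against 3.73 in Snf5 CKO 1 and 4.08 in Snf5 CKO 2, where the other open genes had medians of 4.65, 4.60, 5.28 and 5.18. No open member reached the median of other open genes in any of the 4 libraries. Median length was 355, 368, 416.5 and 445 bp at members, against 1103, 1075, 835 and 808 bp at other open genes. Of the 70 peaks, 31 had a −log10 q of at least 3.

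Alpha and gamma peaks stood at different places relative to the annotated start. In the ordinary alpha genes 17 of 22 peaks lay wholly after the start and the median midpoint was 343.75 bp into the gene. In B-type gamma genes 16 of 18 peaks covered the start, with a median midpoint at 103 bp, and in A-type genes 9 of 13 covered it, at 171.5 bp. A gene is counted here once for each library with a peak. The peaks came from 10 alpha, 6 B-type and 7 A-type genes and are not independent. Peak position was not measured over all genes, and the difference was not tested. Genes of a cluster resemble each other in sequence, and how reads that fit several copies were treated is not given in the sources used here, so the split of signal between neighbours is uncertain.

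The study, by its title, asks about SWI/SNF at germ cell promoters, and at protocadherin starts the genotype comparison gave no call in either direction. Kept genes were open in all 4 libraries, lost genes in both controls and neither Snf5 CKO library, and gained genes in the reverse case. Of the 57 members, 8 were kept, 0 lost and 0 gained, 27 had no peak at the start in any library and 22 were open in a mixture of libraries. Over all genes 53.8% were kept, 2.62% lost, 0.165% gained, 36.4% closed throughout and 7.03% open in a mixture. Of the members 38.6% were open in a mixture of libraries. Among genes open in at least 1 library, 84.6% were kept, compared with 26.7% of the 30 members so open. No fit across genes is possible on peak lists, so there is no unadjusted p to give beside these counts of 0.

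Calls of loss or gain in members arose when 1 library was left out or the peak rule was changed. Without Snf5 CKO 2 the gained members numbered 8 (Pcdha8, Pcdha12, Pcdhb1, Pcdhb3, Pcdhga2, Pcdhga9, Pcdhga11 and Pcdhga12), beside 1.07% of all genes, and the kept ones 12, beside 56.3%. Without Snf5 CKO 1 the lost members numbered 4 (Pcdha10, Pcdha11, Pcdhac1 and Pcdhgb7), beside 5.09% of all genes. Without Control 1 they numbered 3, beside 3.34%. Without Control 2 there was 1 lost member, beside 3.82%, and 1 gained, beside 0.530%. A threshold of 3 on −log10 q, applied to all lists, gave 3 kept members and 1 gained, Pcdha7, beside 48.2% and 0.239% of all genes. A window of 2 kb gave 2 lost, Pcdha3 and Pcdha9, beside 2.67%. With every list shortened to its 28625 peaks of lowest q, 4 members were kept and 3 gained, Pcdha4, Pcdha7 and Pcdhgb5, beside 49.9% and 0.342% of all genes, while the counts of open members became 6, 9, 12 and 9.

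Members open in the libraries with fewer open members were mostly open in those with more. All 9 members open in Snf5 CKO 2 were also open in Snf5 CKO 1 and in Control 2, and 8 of them in Control 1. Of the 13 members open in Control 1, 12 were open in Control 2 and 12 in Snf5 CKO 1. Control 2 and Snf5 CKO 1, which differ in genotype, shared 18 members, which is 85.7% of the Control 2 set and 69.2% of the Snf5 CKO 1 set. The controls shared 12 members, 57.1% of the Control 2 set. Snf5 CKO 1 had 8 members open in no other library, Control 2 had 3, Control 1 had 1 (Pcdha3) and Snf5 CKO 2 had 0. In all, 12 of the 57 members were open in exactly 1 library, beside 505 of the 17549 genes. Of the members open in at least 1 library, 26.7% were open in every library, beside 84.6% of all genes so open. By these measures members were shared between libraries less than genes as a whole, a difference that was not tested. The sharing between pairs of libraries was not counted over all genes, so the overlaps above cannot be called particular to the members. The library with the most open members, Snf5 CKO 1, also had the most peaks in all, and the one with the fewest, Snf5 CKO 2, had the fewest. The part of list length in this order was not tested.

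At the 8 kept members peak length could be compared. Pcdhac2 peaks measured 1193 and 1285 bp in the controls and 1041 and 809 bp in Snf5 CKO, so that the groups did not overlap. Pcdhgc3 showed the same order with 1401 and 1219 bp against 1019 and 848 bp. Pcdhga7, with 447 and 405 bp against 221 and 364 bp, and Pcdhgb6, with 581 and 476 bp against 439 and 427 bp, were also shorter in both Snf5 CKO libraries. The other 4 kept members overlapped between the groups: Pcdha4, Pcdhga3, with 617 and 584 bp against 614 and 211 bp, Pcdhgb4, with 338 and 617 bp against 532 and 457 bp, and Pcdhgb5, with 355 and 529 bp against 584 and 446 bp. Shorter peaks in both Snf5 CKO libraries were thus found at 4 of 8 kept members and longer ones at 0, beside 78.9% and 1.14% of the 9443 kept genes in all. The median log2 ratio of mean length was −0.36 at the kept members, from −0.54 to 0.22, and −0.40 over all kept genes.

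**Figure D3:**
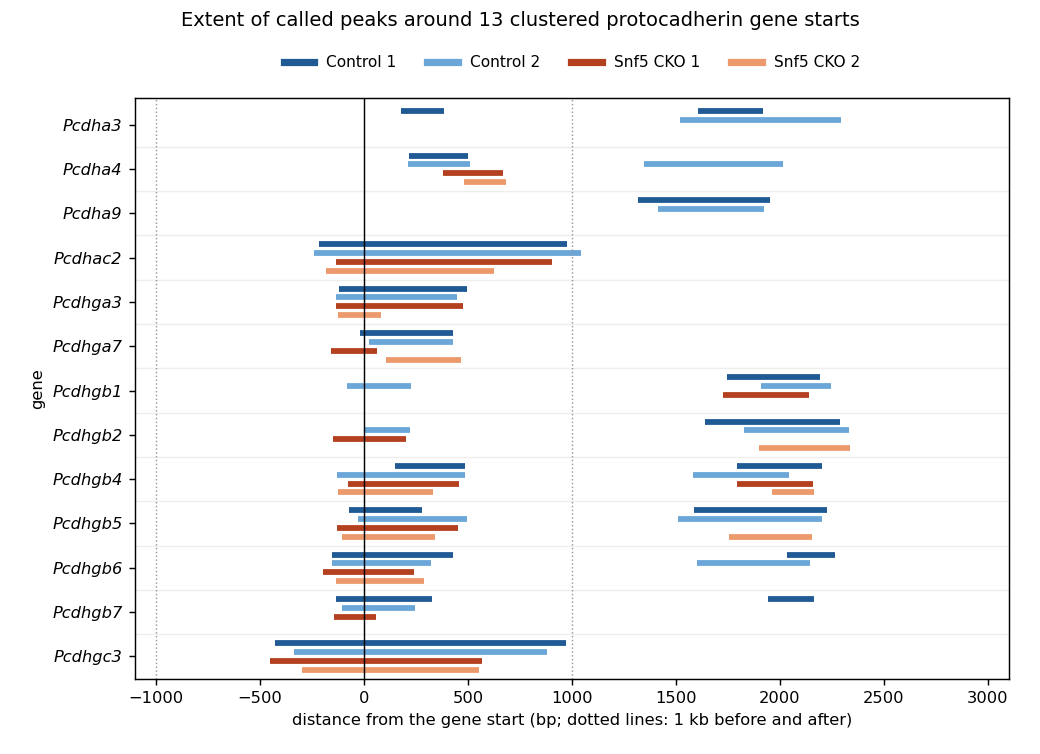
Called peaks around the starts of 13 members, drawn as horizontal bars by distance from the gene start in bp, with 1 colour for each library and dotted lines at 1 kb before and after the start. Peaks at Pcdhac2 and Pcdhgc3 end earlier in both Snf5 CKO libraries, and B-type gamma genes have a peak beyond the 1 kb line in at least 1 library.

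Many members had an accessible site farther into the gene. It is called the second peak below, also where the same library had no peak at the start. The window between 1 and 3 kb after the start was examined after this pattern had been seen, and only peaks that did not reach the start window were counted. Such a peak occurred in at least 1 library at 23 of the 57 members (40.4%), beside 8.86% of all genes with a known strand. The count was 10 members in Control 1, 17 in Control 2, against 9 in Snf5 CKO 1 and 3 in Snf5 CKO 2, where all genes gave 5.69%, 5.49%, 5.84% and 4.62%. Both controls were thus above both Snf5 CKO libraries, 13.5 ± 4.95 (SD, n = 2) against 6.0 ± 4.24 (SD, n = 2), with p = 0.333 in the two-sided exact permutation test, the smallest that 2 against 2 can give. Because the window was chosen from these same lists, no conclusion is drawn from this p. With lists of the same length the counts were 3, 12, 2 and 3, the groups overlapped and the p was 0.667 in the same test. In the full lists, 5 of the 10 members in Control 1 and 10 of the 17 in Control 2 also had a start peak. The same held for 4 of 9 in Snf5 CKO 1 and 2 of 3 in Snf5 CKO 2. At 6 members with the second peak no library had a start peak.

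All 6 B-type gamma genes had this second peak in Control 1, 5 had it in Control 2, against 2 in Snf5 CKO 1 and 3 in Snf5 CKO 2. In Control 1, Pcdhgb1 and Pcdhgb2 had it without a peak at the start. The midpoints of the 16 such peaks at B-type genes lay between 1811.5 and 2148 bp after the start. Pcdhgb4 was the only member with the second peak in all 4 libraries, from 37721957 to 37722578 as a merged region, with fold enrichments of 2.68, 2.55, 3.37 and 4.32 in Control 1, Control 2, Snf5 CKO 1 and Snf5 CKO 2. For Pcdhgb5 it was present in all but Snf5 CKO 1, with 2.72, 2.96 and 3.01, and for Pcdhgb2 likewise, with 2.67, 3.08 and 3.59. At Pcdhgb1 it was present in all but Snf5 CKO 2, and its value of 4.29 in Control 1 was the highest of the B type in that list.

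At ordinary alpha genes the second peak was found mostly in Control 2. Control 1 had it at 2 of the 12 genes, Control 2 at 8, Snf5 CKO 1 at 1 (Pcdha7) and Snf5 CKO 2 at 0. The midpoints of the 11 alpha peaks lay 1481 to 1906 bp after the start. Pcdha9, which had no peak at the start in any library, had a second peak of 632 bp in Control 1 and 513 bp in Control 2, with fold enrichments of 3.46 and 3.52. Pcdha3 had 314 and 771 bp at 3.32 and 2.996.

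By the rule for lost and gained sites, Pcdha3, Pcdha9 and Pcdhgb6 lost the second peak, 3 of 57 members, beside 0.826% of all genes. None gained one, beside 0.536%, and 1 was kept, beside 2.99%. At Pcdhgb6 the control peaks measured 233 and 543 bp, with fold enrichments of 2.29 and 2.85. None of these 3 losses held with a threshold of 3 on −log10 q or with lists of the same length, where Pcdhgb1 was the single lost member, beside 0.473% and 0.450% of all genes. The number lost was 11 without Control 1, beside 1.43%, and 4 without Control 2, beside 1.77%. It was 6 without Snf5 CKO 1, beside 1.22%, and 5 without Snf5 CKO 2, beside 0.969%. The number gained was 5 without Snf5 CKO 2, beside 1.67%. In the beta cluster Pcdhb3, Pcdhb14 and Pcdhb19 had the second peak in Snf5 CKO 1 and Pcdhb21 in Control 2. Their fold enrichments ran from 3.08 to 3.51, and all of these genes but Pcdhb3 lacked a start peak in every library. The A-type gene Pcdhga12 had one in all but Snf5 CKO 2, at 3.45, 3.37 and 3.80. The C-type gene Pcdhgc5, closed at its start, had a peak farther in, with fold enrichments of 3.21 in Control 1, 3.56 in Control 2 and 3.84 in Snf5 CKO 1.

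**Figure D4:**
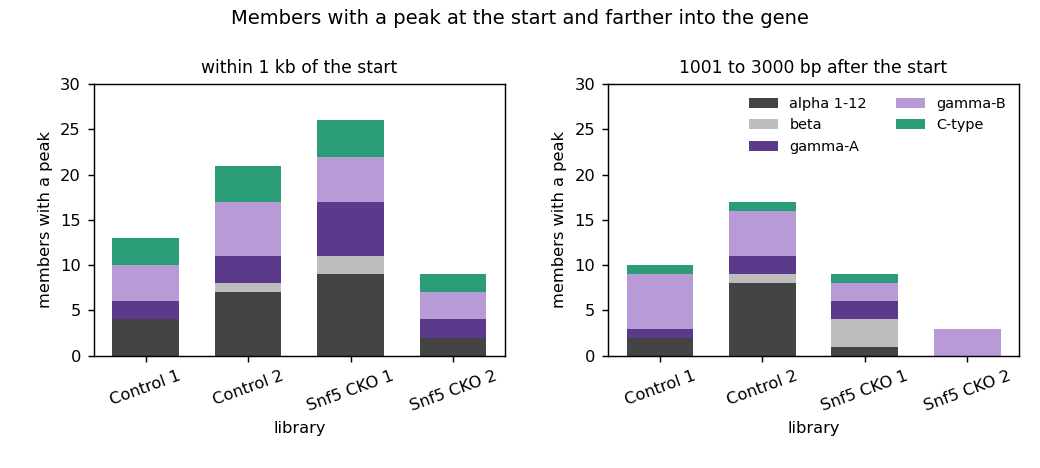
Number of members with a peak within 1 kb of the start (left) and between 1 and 3 kb after it (right), stacked by subgroup, for each library. At the start the counts are 13, 21, 26 and 9 with no order by genotype, and farther in they are 10 and 17 in the controls against 9 and 3 in Snf5 CKO. The window on the right was chosen after the pattern had been seen.

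Over the whole locus with 50 kb on either side, 1011.6 kb in all, there were 29 peaks in Control 1, 50 in Control 2, against 54 in Snf5 CKO 1 and 20 in Snf5 CKO 2. They covered 14299, 22600, 21553 and 8413 bp, or 1.41%, 2.23%, 2.13% and 0.832% of the locus. Between the first and last gene of chromosome 18 the covered shares were 0.898%, 0.818%, 0.842% and 0.537%, so the locus was covered more than the chromosome as a whole in each library. Controls averaged 18449.5 ± 5870 covered bp (SD, n = 2) and the Snf5 CKO libraries 14983 ± 9291 (SD, n = 2), which differ by less than the spread within Snf5 CKO (p = 0.667, two-sided exact permutation test). Without Control 2 or without Snf5 CKO 2 the order of the groups turned, with Snf5 CKO higher by 684 and 3103.5 bp.

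In each library the gamma cluster was covered more than the alpha cluster. The gamma cluster was covered to 5.11%, 6.00%, 4.90% and 2.11% in Control 1, Control 2, Snf5 CKO 1 and Snf5 CKO 2, the alpha cluster to 1.34%, 2.99%, 2.43% and 0.669%. In the gamma cluster both Snf5 CKO libraries lay below both controls, with 8830 and 3794 bp against 9210 and 10802 bp (p = 0.333, two-sided exact permutation test). As a share of all covered bases of a library, the gamma cluster held 0.0336% and 0.0428% in controls and 0.0364% and 0.0224% in Snf5 CKO, so that on this scale the groups overlapped. The number of gamma peaks did not separate the groups, at 18 and 22 in controls and 23 and 9 in Snf5 CKO. The mean peak length in that cluster was 511.7 and 491 bp in controls and 383.9 and 421.6 bp in Snf5 CKO. In whole lists the covered length was likewise lower in both Snf5 CKO libraries. The part of depth in these differences was not tested. No peak fell in the 50 kb before the alpha cluster in any library.

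**Figure D5:**
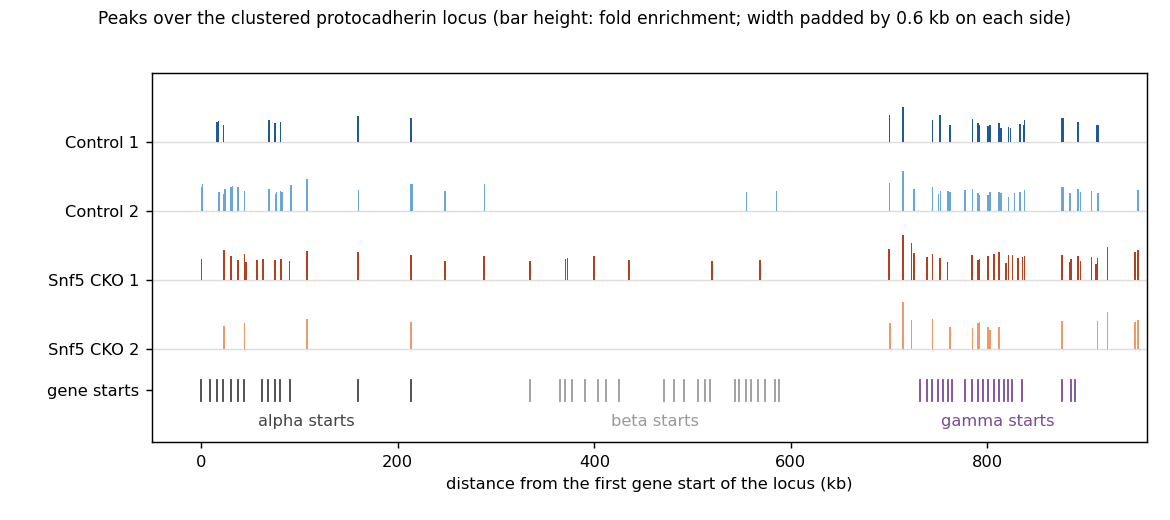
Peaks of the 4 libraries along the locus, as bars at their distance in kb from the first gene start, widened for visibility, with the height giving fold enrichment and the ticks at the bottom marking the gene starts of the 3 clusters. Bars crowd at the alpha and gamma starts, and the beta stretch is empty in Control 1 and Snf5 CKO 2.

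When overlapping peaks of the 4 lists were merged, the locus held 75 regions, of which 12 were kept, 4 lost, 3 gained and 56 present in a mixture of libraries. The kept regions are 16.0% and the lost 5.33% of the 75, where the 66058 merged regions of the genome gave 29.4% kept, 7.58% lost, 5.08% gained and 57.9% in a mixture. The lost regions lay inside the alpha and gamma clusters, and 3 of the 4 were the second peaks of Pcdha3, Pcdha9 and Pcdhgb6. The other, at 37763352 to 37763926, lay within the pseudogene Pcdhgb8, with fold enrichments of 2.86 and 2.998 in the controls. The gained regions lay outside the clusters. One, at 37652742 to 37652978, overlapped the pseudogene Gm8242 between the beta and gamma clusters, with 5.97 in Snf5 CKO 1 and 4.70 in Snf5 CKO 2. The others lay within Diaph1, a gene for an actin-nucleating formin beyond the gamma cluster, at 37852119 to 37852507, with 5.26 and 5.86, and at 37880211 to 37880514, with 4.44 and 4.35. The values of the first Diaph1 region were above those at every member start in the same lists.

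Some sites away from gene starts recurred across genotypes. A region at 37037854 to 37038249, between Pcdha12 and Pcdhac1, had peaks in Control 2, Snf5 CKO 1 and Snf5 CKO 2, with fold enrichments of 5.17, 4.59 and 4.78, higher than any alpha start in Control 2 and Snf5 CKO 2. Downstream of the alpha cluster a region at 37217939 to 37218496 had a peak in Control 2, at 4.24, and in Snf5 CKO 1, at 3.87. A region at 37630235 to 37631334, between the beta and gamma clusters, was present in all 4 libraries, with 4.39, 4.49, 4.94 and 4.11. The files do not name these sites, and none was matched to a known enhancer.

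The locus with its flanks also holds or touches 6 protein-coding genes that are no members. Taf7, which encodes a subunit of the general transcription factor TFIID and lies between the beta and gamma clusters, had the strongest peak within the locus and its 50 kb flanks in every library, with fold enrichments of 5.57, 6.35, 7.30 and 7.46. Its peaks measured 714 and 817 bp in controls and 571 and 540 bp in Snf5 CKO. Diaph1, whose far end lies beyond the flank, had a peak at a gene end in all 4 libraries, with 6.31, 4.73, 4.76 and 5.65. Slc25a2, a mitochondrial ornithine carrier gene beside Taf7, had none in any library. The read-through models Gm37013, Gm38666 and Gm38667 were open in all 4, through the starts they share with alpha genes or the end they share with the gamma cluster. Strand was not given for these genes, so both gene ends were searched.

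Related genes outside the clusters were looked at in the same way, and where strand was not given a peak at either gene end counted. Of the 12 non-clustered protocadherins, 6 were kept (Pcdh1, Pcdh8, Pcdh10, Pcdh17, Pcdh18 and Pcdh19), 3 were closed in all 4 libraries and Pcdh7 was lost, with control fold enrichments of 2.32 and 2.47. Pcdh7 was kept when any of its listed starts could count. Of 10 classical cadherins 4 were kept (Cdh1, Cdh2, Cdh3 and Cdh4), 3 were closed and none was lost or gained. None of these 4 has a given strand, and of the 3 cadherins with one, Cdh6, Cdh8 and Cdh10, none was kept. The difference between these genes and the members was not tested. For comparison, 53.8% of all genes were kept, 2.62% lost, 0.165% gained and 36.4% closed.

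Tandem receptor families, which like the beta genes are repeated along a chromosome, were almost closed. Of 1110 olfactory receptor genes 2.34% were open in at least 1 library and 5 were lost (Olfr212, Olfr283, Olfr316, Olfr824 and Olfr1344). The share lost over all genes was 2.62%. Of 231 vomeronasal type 1 receptor genes 1.30% were open in at least 1 library, and of 124 type 2 genes 3.23%. The beta genes had 13.6% by this measure, the alpha cluster 85.7% and the gamma cluster 71.4%. Over all genes it was 63.6%.

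Of 20 genes for factors known to act on clustered protocadherin promoters, 13 were kept and 3 lost, beside 53.8% and 2.62% of all genes. Of the others, 3 were closed in all libraries and Lrif1 was open in 3. Strand is given for 14 of the 20. Ctcf, the insulator gene, had fold enrichments of 3.93, 3.88, 4.76 and 4.95 in Control 1, Control 2, Snf5 CKO 1 and Snf5 CKO 2, and peak lengths of 2004, 1920, 1258 and 1073 bp. Smchd1, whose product helps to silence the clusters, had 4.52, 4.19, 5.37 and 5.01. Dnmt3b, a DNA methyltransferase gene, had 4.01, 3.92, 4.32 and 3.69. The other DNA methyltransferase genes of the list, Dnmt1 and Dnmt3a, had no peak at the start in any library. The genes called lost were Nipbl, Stag1 and Wapl, which encode a loader, a subunit and a release factor of cohesin. The cohesin subunit genes Smc1a, Smc3 and Stag2 were kept, and Rad21 had no peak at either gene end. Wapl still had Snf5 CKO peaks in the merged region that touched its window, Stag1 was kept when any listed start could count, and the call of Nipbl rests on gene ends, since its strand was not given.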

How the data were processed

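The submitters' processing notes name the build mm10 and, in no stated order, MACS2 2.2.7.1, Bowtie2 2.4.2, Trim Galore 0.6.5, Picard 2.25.2 and SAMtools 1.10. The sources used here give no thresholds, duplicate handling, read shift or treatment of reads that fit several places. Per library, the authors deposited 1 broad peak list with a score, a fold enrichment (ratio over local background), a −log10 p and a −log10 q for each peak. The smallest deposited −log10 q was 1.00 to 1.02. Fold served to describe peaks within a list and was not tested between libraries.

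Gene positions came from the RefSeq table of GRCm38.p6. Strand was taken from the RefSeq promoter table for 17492 genes. For the 57 members it was set to plus, with the start at the lower coordinate, since alpha and gamma genes share their higher end; for the beta genes this is an assumption from the cluster. These 17549 genes are the background, and 4338 others were left out of it. The promoter table had no entries for chromosome 18, so the members are the only genes of that chromosome in the background. Overlaps, merging and exact permutation tests were computed in Python 3.11.15 with pandas 2.3.3 and numpy 2.4.6, and checked on simulated peaks. Every member with a start peak was named, and in other lists the genes called lost or gained. Other list genes were picked after their values were seen. Members and lists were chosen with earlier results of these data known. Promoter sequences of the members were not used here.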

Additional observations from a re-analysis of the deposited data

How the results depend on the processing

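No paired analysis was possible because the labels do not say that equal replicate numbers mark paired samples, and no model was fitted to the peak lists; values are given for each library. A threshold of 3 on −log10 q, applied to all lists, left 3 members kept and 1 gained (Pcdha7), and for presence alone it left 3 kept, while 207 genes in all were lost and 16 gained. With windows of 2 kb, 2 members were lost (Pcdha3 and Pcdha9) and the mean number open was lower in Snf5 CKO, by −2.5. With lists of the same length 4 members were kept, 3 gained and 60 genes in all gained. The difference in the number of peaks over the locus, −2.5, became 1.5 with that threshold and 3.0 with lists of the same length. Windows of 500 bp, 200 bp of covered window and the whole-region rule, which counts a peak anywhere in a merged region touching the window, left 8 members kept and 0 lost or gained. Listed starts, an alternative chosen after the data were seen, gave 10087 genes kept, 427 lost and 30 gained. The causes were not tested.

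Leaving out each library in turn gave 8 to 12 members kept, 0 to 4 lost and 0 to 8 gained. Over all genes it gave 9459 to 9876 kept, 555 to 893 lost and 39 to 188 gained, against 9443, 460 and 29 with all libraries. Fewer libraries have to match in these counts. The difference in the number of open members ranged from −8.0 to 9.0, that in covered bases from −10036.5 to 3103.5 and that in peaks over the locus from −19.5 to 14.5. Depth is unknown.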
